A study of Mus musculus with 6 samples.

Results

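The Cyp4a genes encode cytochrome P450 enzymes that hydroxylate fatty acids, and 6 of them were followed through mouse liver: Cyp4a14, Cyp4a10, Cyp4a31, Cyp4a32, Cyp4a12a and Cyp4a12b. They are 6 of the 24411 genes in the count tables and were chosen by symbol, with their levels in this same comparison already known. Their group differences are therefore given as a description, without a test. Bulk RNA sequencing covered 3 Cyr61 KO and 3 Control libraries. Both groups were livers of male mice of the strain Cyr61fl/fl, aged 24 weeks, fed for 12 weeks a NASH diet, which models non-alcoholic steatohepatitis. The floxed strain is thus common to knockouts and controls, and the labels do not say which cells lost the gene or by which Cre. Nor do they state that each library is a separate mouse, so that the spread between libraries may be partly technical. Cyr61 (Ccn1) encodes a secreted matricellular protein.

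Omega-hydroxylases sit in the membrane of the endoplasmic reticulum and place a hydroxyl group on the terminal carbon of medium- and long-chain fatty acids. Alcohol and aldehyde dehydrogenases then turn the product into a dicarboxylic acid, which is activated with coenzyme A and shortened in peroxisomes. In mouse liver, Cyp4a10 and Cyp4a14 are classical targets of the nuclear receptor PPAR-alpha and are induced by fasting and by fibrate drugs. Cyp4a12a is the male-biased member, a fatty acid and arachidonic acid omega-hydroxylase that depends on androgen and on the male pattern of growth hormone.

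The 6 genes lie within 322.6 kb of chromosome 4, from 115299046 to 115621602 (GRCm38, GENCODE M21 annotation), with 5 of the 6 on the plus strand and Cyp4a14 on the minus strand. In their order along the chromosome they are Cyp4a12a (chr4:115299046-115332815), Cyp4a12b (chr4:115411624-115439034), Cyp4a14 (chr4:115486200-115496142), Cyp4a10 (chr4:115518264-115533649), Cyp4a31 (chr4:115563649-115579015) and Cyp4a32 (chr4:115600969-115621602). The coding sequences run from 1521 to 1527 bases. They are close copies in 2 groups, with Cyp4a14 apart. Cyp4a12a and Cyp4a12b were identical at 98.5% of aligned coding bases. Cyp4a10 was identical to Cyp4a32 at 97.2% and to Cyp4a31 at 96.6%, and Cyp4a31 to Cyp4a32 at 96.0%. Cyp4a14 matched the other 5 genes at 75.4% to 76.1%.

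A stretch of 60 coding bases in exon 6 is given because the counts below rest on how far a read can tell the copies apart. It was picked as the most variable ungapped stretch of this length, by distinct sequences and then by variable positions. It therefore does not stand for the rest of the coding sequence. It is read 5′ to 3′ on the coding strand from the GENCODE M21 transcripts. Capitals mark the 35 positions at which the 6 genes are not all alike.
Cyp4a14, chr4:115492166-115492225, minus strand: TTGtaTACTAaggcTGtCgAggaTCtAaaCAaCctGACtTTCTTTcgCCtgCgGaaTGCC
Cyp4a10, chr4:115524735-115524794, plus strand: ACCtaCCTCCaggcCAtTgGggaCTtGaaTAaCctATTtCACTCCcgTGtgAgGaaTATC
Cyp4a31, chr4:115570196-115570255, plus strand: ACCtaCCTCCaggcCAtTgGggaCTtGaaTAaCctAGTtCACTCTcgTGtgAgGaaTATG
Cyp4a32, chr4:115610463-115610522, plus strand: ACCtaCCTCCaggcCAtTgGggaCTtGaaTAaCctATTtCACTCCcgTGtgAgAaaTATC
Cyp4a12a, chr4:115326638-115326697, plus strand: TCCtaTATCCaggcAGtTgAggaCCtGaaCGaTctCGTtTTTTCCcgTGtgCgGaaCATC
Cyp4a12b, chr4:115432891-115432950, plus strand: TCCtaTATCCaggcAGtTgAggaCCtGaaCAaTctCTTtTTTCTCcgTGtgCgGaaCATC
In this stretch Cyp4a32 differed from Cyp4a10 at 1 base, Cyp4a31 from Cyp4a10 at 3 and Cyp4a12b from Cyp4a12a at 4. Cyp4a14 differed from Cyp4a10 at 28 bases and from Cyp4a12a at 22.

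The codons of the heme-binding signature, which holds the cysteine that binds the heme iron, are shown as the contrasting stretch in which the family hardly varies. It spans exons 11 and 12, and capitals mark the positions that differ within the family.
Cyp4a14: ttctcaggaggaTcAaggaactgcattggg
Cyp4a12a and Cyp4a12b: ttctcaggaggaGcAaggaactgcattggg
Cyp4a10, Cyp4a31 and Cyp4a32: ttctcaggaggaGcCaggaactgcattggg
Over the whole transcript, 99.8% of the 50-base stretches of Cyp4a14 occurred in no other gene's transcript. The share was 78.2% for Cyp4a31, 69.5% for Cyp4a10 and 53.2% for Cyp4a32, and about as low for Cyp4a12a and Cyp4a12b at 51.1% and 50.5%. The counts of Cyp4a14 therefore rest on sequence of its own, while reads of the other genes that match several copies were set aside as multi-mapped or could have gone to a copy.

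The libraries held 31133292 to 40377742 counts in genes in the Cyr61 KO group and 21032878 to 34827903 in the Control group. Control replicate 2 was unlike the other 5 libraries: 50.9% of its reads fell in genes and 19.4% mapped to several positions, where the others had 82.8% to 87.6% and 3.74% to 5.73%. Cyr61 was at 3.77, 2.66 and 3.14 CPM (gene counts scaled to a common library size after TMM normalisation) in the Cyr61 KO libraries, against 15.6, 32.4 and 27.8 CPM in the Control libraries, with a log2 fold change of -2.98 ± 0.32 (SE, adjusted p = 0.0103 by edgeR). Without Cyr61 KO replicate 1 that adjusted p was 0.0615. Hepatocyte markers were abundant in both groups, with Alb, the albumin gene, at 77118 to 90103 CPM in Cyr61 KO libraries and 23799 to 66677 CPM in Control libraries. Markers of kidney, the other organ rich in Cyp4a enzymes, did not exceed 0.168 CPM in any library, and the defining tubule genes Kap and Slc34a1 had no count.

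Cyp4a14 and Cyp4a10, the PPAR-alpha-inducible fatty acid hydroxylases, showed by far the largest differences of the 6 genes. Cyp4a14 reached 631, 739 and 1555 CPM in the knockouts, Cyr61 KO replicates 1, 2 and 3, against 55.2, 65.7 and 48.0 CPM in Control replicates 1, 2 and 3. Every knockout library lay well above every control, and the knockouts themselves were spread, with replicate 3 far above the other 2. The means were 975 ± 505 CPM in Cyr61 KO livers and 56.3 ± 8.91 CPM in Control livers (SD, n = 3 each), a log2 fold change of 4.11 ± 0.43 (SE). The lowest knockout was 9.60 times the highest control.

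Cyp4a10 was at 452, 612 and 748 CPM in the Cyr61 KO libraries, against 103, 72.9 and 71.5 CPM in the Control libraries. Its groups were also clearly apart, with a smaller spread among the knockouts than for Cyp4a14. The means were 604 ± 148 CPM in Cyr61 KO livers and 82.6 ± 18.1 CPM in Control livers (SD, n = 3 each), a log2 fold change of 2.87 ± 0.32 (SE). The lowest knockout was 4.36 times the highest control.

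**Figure D1:**
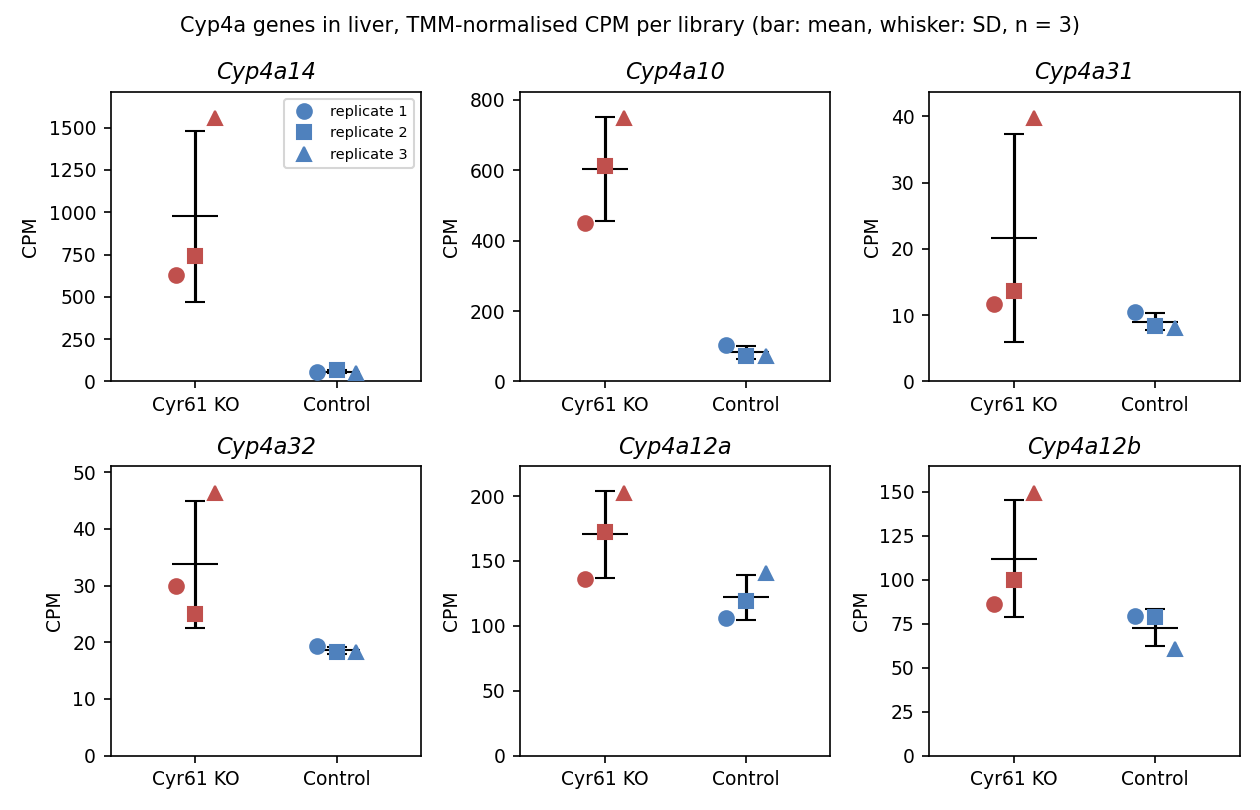
TMM-normalised CPM (y axis, linear from 0) of each Cyp4a gene in the 3 Cyr61 KO and 3 Control libraries, with points for libraries, a bar for the mean and a whisker for the SD (n = 3). Cyp4a14 and Cyp4a10 are far above Control in every Cyr61 KO library, and Cyr61 KO replicate 3 (triangle) is the highest library for all 6 genes.

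Cyp4a31 and Cyp4a32, the close copies of Cyp4a10, showed smaller differences that leaned on 1 knockout library. Cyp4a31 was at 11.6, 13.6 and 39.7 CPM in the Cyr61 KO libraries, against 10.5, 8.43 and 8.14 CPM in the Control libraries. The groups did not overlap, but Cyr61 KO replicates 1 and 2 lay just above the controls and replicate 3 alone was high. The log2 fold change was 1.26 ± 0.44 (SE), and 0.50 without Cyr61 KO replicate 3. Cyp4a32 was at 29.9, 24.97 and 46.4 CPM in the Cyr61 KO libraries, against 19.3, 18.3 and 18.2 CPM in the Control libraries. The controls were nearly alike and all knockouts were above them, again with replicate 3 highest. Its log2 fold change was 0.86 ± 0.25 (SE), and 0.57 without Cyr61 KO replicate 3. When the counts of Cyp4a10, Cyp4a31 and Cyp4a32 were added up, so that reads misplaced among these copies no longer mattered, the sum was 493, 650.5 and 834 CPM in the Cyr61 KO libraries against 133, 99.7 and 97.9 CPM in the Control libraries. The sum had a log2 fold change of 2.58 ± 0.31 (SE) against 2.87 for Cyp4a10 alone. Cyp4a10 made up most of the sum, so the sum cannot tell whether misplaced reads entered the values of Cyp4a31 and Cyp4a32. Multi-mapped reads stayed out of the sum as well.

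Cyp4a12a, the male-biased omega-hydroxylase, differed least. It was at 136, 172 and 203 CPM in the Cyr61 KO libraries, against 106, 119 and 140.5 CPM in the Control libraries. The ranges overlapped, since Cyr61 KO replicate 1 lay below Control replicate 3. The means were 170.4 ± 33.2 CPM in Cyr61 KO livers and 122 ± 17.3 CPM in Control livers (SD, n = 3 each), a log2 fold change of 0.48 ± 0.25 (SE). Its copy Cyp4a12b was at 86.2, 99.96 and 149 CPM in the Cyr61 KO libraries, against 79.0, 78.9 and 60.3 CPM in the Control libraries. Here the groups were apart by a narrow margin, the lowest knockout being 1.09 times the highest control. The log2 fold change was 0.62 ± 0.26 (SE). The summed pair was at 223, 272 and 352 CPM in the Cyr61 KO libraries and 185, 198 and 201 CPM in the Control libraries, a log2 fold change of 0.54 ± 0.26 (SE). Relative to the summed hepatocyte markers the sign of both genes turned, to -0.15 and -0.068, as described further on.

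All 6 genes passed the filter on low counts, and all 6 were highest in Cyr61 KO replicate 3. By edgeR's quasi-likelihood test with a Benjamini-Hochberg adjusted p below 0.05 over 13563 genes, 2 of the 6, Cyp4a14 and Cyp4a10, were called higher, where 1.07% of all tested genes (145) were. None of the 6 was called lower, where 2.37% of all tested genes (322) were. In 5 of the 6 every knockout library was above every control, as in 17.3% of all tested genes (2352). The members were selected on this contrast, so nothing is read from these counts. The median log2 fold change was 1.06 over the 6 genes and -0.03 over all tested genes. With library totals as the only scaling the medians were 0.83 and -0.30.

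Which members were called depended on the tool and on single libraries. DESeq2 called 4, adding Cyp4a31 and Cyp4a32, where it called 886 of all 13563 tested genes higher and 1387 lower. Without Cyr61 KO replicate 1 edgeR called Cyp4a14 alone while Cyp4a10 had a log2 fold change of 3.05. The calls over all genes moved as well: 4 higher and 3 lower without Cyr61 KO replicate 1, 12 and 12 without replicate 2 and 169 and 604 without replicate 3. Without Control replicates 1, 2 and 3 they were 43 and 131, 126 and 167, and 158 and 720.

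Levels of different genes were compared per kb of annotated exon. In Cyr61 KO livers the order was Cyp4a14 at 375 ± 194, Cyp4a10 at 286 ± 70.4, Cyp4a12a at 70.4 ± 13.7, Cyp4a12b at 46.7 ± 13.9, Cyp4a32 at 21.99 ± 7.30 and Cyp4a31 at 8.63 ± 6.25 CPM per kb (SD, n = 3). In Control livers it was Cyp4a12a at 50.4 ± 7.14, Cyp4a10 at 39.2 ± 8.57, Cyp4a12b at 30.4 ± 4.50, Cyp4a14 at 21.6 ± 3.43, Cyp4a32 at 12.1 ± 0.400 and Cyp4a31 at 3.60 ± 0.514 CPM per kb (SD, n = 3). Cyp4a14 was thus first in the knockouts and behind Cyp4a12a, Cyp4a10 and Cyp4a12b in the controls, while Cyp4a31 and Cyp4a32 were last in both. Not all neighbours in this order were apart. Among the knockouts the ranges of Cyp4a14 and Cyp4a10 overlapped, with Cyp4a14 higher in 2 of 3 libraries, as did those of Cyp4a12a and Cyp4a12b. Among the controls the ranges of Cyp4a12a and Cyp4a10 overlapped, with Cyp4a12a higher in 2 of 3 libraries, and so did those of Cyp4a12b and Cyp4a14. The annotated exons of Cyp4a32 (1536 bases) hardly exceed its coding sequence (1527 bases), whereas those of the other 5 genes run from 2109 to 2601 bases, so that its level per kb is taken over coding length almost alone.

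The make-up of the family differed between the groups accordingly. Cyp4a14 supplied 42.3%, 40.1% and 52.2% of the summed CPM per kb of the 6 genes in the Cyr61 KO libraries, against 12.9%, 16.1% and 12.2% in the Control libraries. Cyp4a12a supplied 9.83%, 10.03% and 7.31% in the Cyr61 KO libraries, against 26.8%, 31.2% and 38.5% in the Control libraries. The groups did not overlap for either gene. Cyp4a10 averaged 36.4% ± 5.05 in Cyr61 KO and 24.8% ± 4.44 in Control livers, and Cyp4a12b 5.87% ± 0.415 and 19.3% ± 2.25 (SD, n = 3 each). The remainder was Cyp4a32, at 2.78% ± 0.567 in Cyr61 KO and 7.71% ± 0.135 in Control livers, and Cyp4a31, at 0.987% ± 0.344 and 2.28% ± 0.236. A lower share of Cyp4a12a in the knockouts does not mean a lower level, since its CPM was not lower. The 6 genes together were at 1346, 1661 and 2741 CPM in the Cyr61 KO libraries, against 374, 363 and 347 CPM in the Control libraries.

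**Figure D2:**
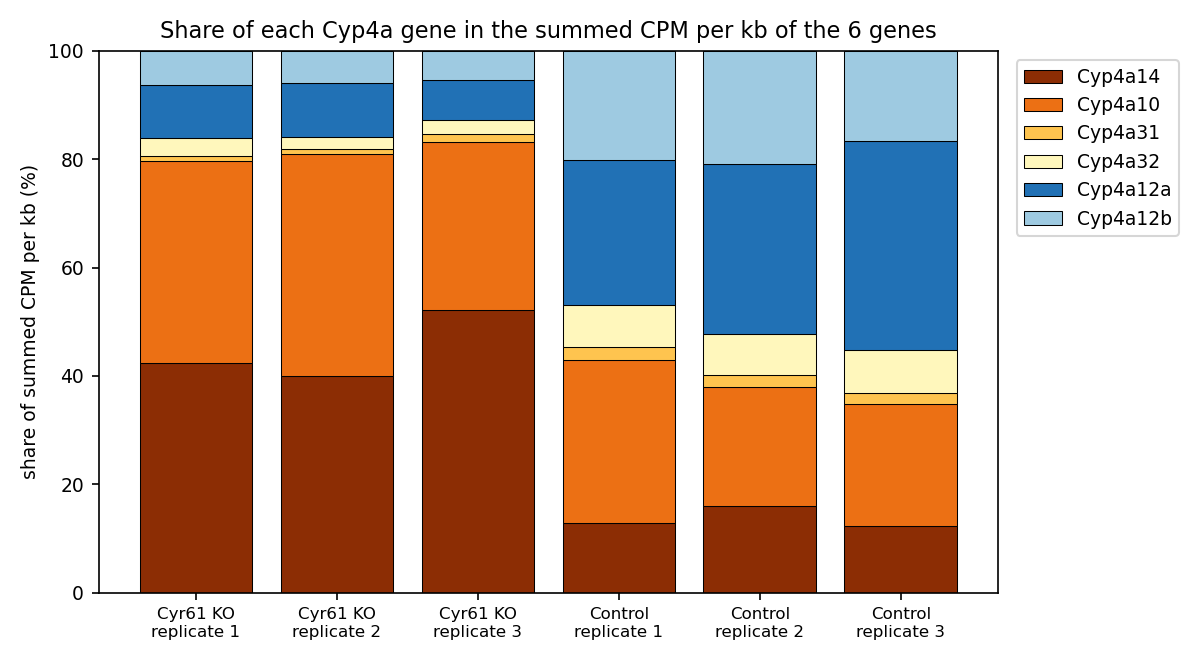
Share of each Cyp4a gene in the summed CPM per kb of the 6 genes (y axis, percent), 1 bar for each Cyr61 KO and Control library. Cyp4a14 fills 40.1% to 52.2% of each Cyr61 KO bar and 12.2% to 16.1% of each Control bar, while Cyp4a12a fills 7.31% to 10.03% and 26.8% to 38.5%.

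The spread among knockouts was not the same for all members. The highest over the lowest Cyr61 KO library was 3.41 for Cyp4a31, 1.86 for Cyp4a32, 1.73 for Cyp4a12b, 1.66 for Cyp4a10 and 1.49 for Cyp4a12a, while Cyp4a14 lay between Cyp4a31 and Cyp4a32. Among Control libraries this ratio ran from 1.06 for Cyp4a32 to 1.45 for Cyp4a10. Cyr61 KO replicate 3 exceeded the mean of the other 2 knockouts 3.15-fold for Cyp4a31 and 2.27-fold for Cyp4a14, but 1.41-fold for Cyp4a10 and 1.31-fold for Cyp4a12a.

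Along the chromosome, the pair with the largest differences is adjacent. Cyp4a14 and Cyp4a10 start 22.1 kb apart on opposite strands, so that their start sites face away from each other with no protein-coding gene between them. Farther along on the Cyp4a10 side, Cyp4a31 and Cyp4a32 start 67.5 and 104.8 kb from the Cyp4a14 start, and their log2 fold changes of 1.26 and 0.86 are smaller. On the other side lie Cyp4a12b and Cyp4a12a, at 0.62 and 0.48. The next gene beyond Cyp4a32, Cyp4b1, which belongs to another Cyp4 subfamily, had a log2 fold change of 0.49 ± 0.21 (SE) that did not pass (edgeR adjusted p = 0.179). Of the other protein-coding Cyp4a genes of the cluster, Cyp4a29 was seen in Control replicate 2 alone, at 0.0688 CPM, and Cyp4a30b had no count in any library.

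**Figure D3:**
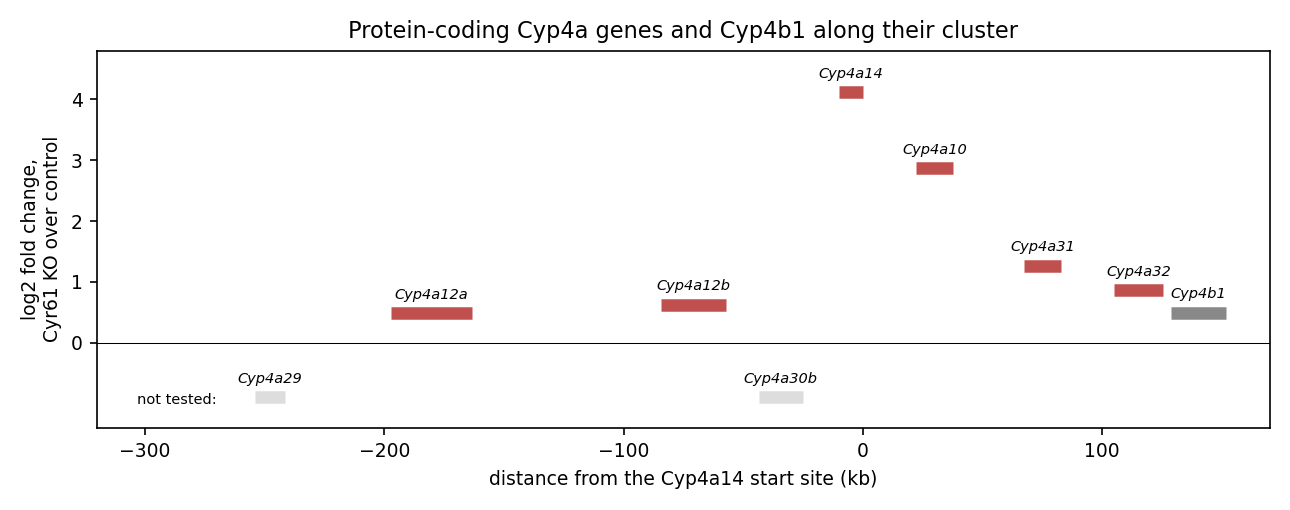
Log2 fold change of Cyr61 KO over Control (y axis) against distance from the Cyp4a14 start site in kb (x axis), each block spanning a gene, in red for the 6 Cyp4a genes and dark grey for Cyp4b1. Cyp4a14 (4.11) and Cyp4a10 (2.87) stand side by side above the rest, and the 2 untested genes are drawn in pale grey below 0 without a value.

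The enzymes that follow omega-hydroxylation were described through a list of 25 genes for electron donors, alcohol and aldehyde dehydrogenases and peroxisomal breakdown of dicarboxylic acids. Of these 25, all tested, 1 was called higher and none lower, where 1.07% and 2.37% of all tested genes were. The other 24 were not called. The list had 21 positive log2 fold changes, beside 6561 of all 13563 tested genes, and a median of 0.68. At an unadjusted p below 0.05 there were 8, where 27.4% of all tested genes (3720) were. DESeq2 called 7 higher and 0 lower, where it called 886 of all 13563 tested genes higher and 1387 lower. The called gene was Acsl1, a long-chain acyl-CoA synthetase, at 1125, 1361 and 1459 CPM in the Cyr61 KO libraries against 503, 255 and 516 CPM in the Control libraries (log2 fold change 1.63 ± 0.36, edgeR adjusted p = 0.0458). Its groups were well apart. The call was lost on leaving out each Cyr61 KO replicate in turn (edgeR adjusted p = 0.0947, 0.194 and 0.0663 without replicates 1, 2 and 3) and without Control replicate 1 (0.0879), with library totals as the only scaling (0.0581) and with a replicate block (0.0563). Among the most abundant genes not called were the thiolase gene Acaa1b at 0.71 on the log2 scale (edgeR adjusted p = 0.195), the alcohol dehydrogenase gene Adh1 at 0.60 (0.310) and the peroxisomal thiolase and sterol carrier gene Scp2 at 0.60 (0.340). For each of these 3 every knockout was above every control, as in 17.3% of all tested genes. Por, the reductase that hands electrons to P450 enzymes, had a log2 fold change of -0.45, its cofactor Cyb5a one of -0.02 and the cytochrome b5 reductase gene Cyb5r3 one of 0.84. The choice of these 3 electron donor genes was made with their values in view.

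A list of 36 further PPAR-alpha target genes, 8 of them also in the preceding list, had 34 tested members. Of these 2 were called higher, Acot1 and Acsl1, where 1.07% of all tested genes were. Another 1, Fgf21, was called lower, where 2.37% of all tested genes were, and 31 of the 34 were not called. The median log2 fold change was 0.69, and 30 of the 34 were positive, beside 6561 of all 13563 tested genes. At an unadjusted p below 0.05 were 15, beside 27.4% of all tested genes. Acot1, a cytosolic acyl-CoA thioesterase gene, was at 67.0, 53.1 and 107.7 CPM in the Cyr61 KO libraries, against 30.7, 25.3 and 16.8 CPM in the Control libraries (log2 fold change 1.65 ± 0.33, edgeR adjusted p = 0.0381). Fgf21, which encodes a hormone secreted by the liver and is also a target of the stress factor ATF4, moved the other way. It was at 3.71, 4.43 and 12.3 CPM in the Cyr61 KO libraries, against 40.8, 55.6 and 43.0 CPM in the Control libraries (log2 fold change -2.76 ± 0.44, edgeR adjusted p = 0.0237). Neither gene's groups overlapped, where every knockout was above every control in 2352 of 13563 tested genes and below in 2421. The abundant member Fabp1, the liver fatty acid-binding protein gene, was at 0.93 on the log2 scale and missed the threshold (edgeR adjusted p = 0.133).

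Acot1 was no longer called without Cyr61 KO replicates 1 or 2 or Control replicates 1 or 2 (edgeR adjusted p = 0.0913, 0.0981, 0.0528 and 0.0727), nor Fgf21 without Cyr61 KO replicates 1 or 2 (0.0812 and 0.105). DESeq2 called 11 members of the list higher and 1 lower, where it called 886 of all 13563 tested genes higher and 1387 lower. Library totals as the only scaling left 0 called higher and 0 lower by edgeR.

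**Figure D4:**
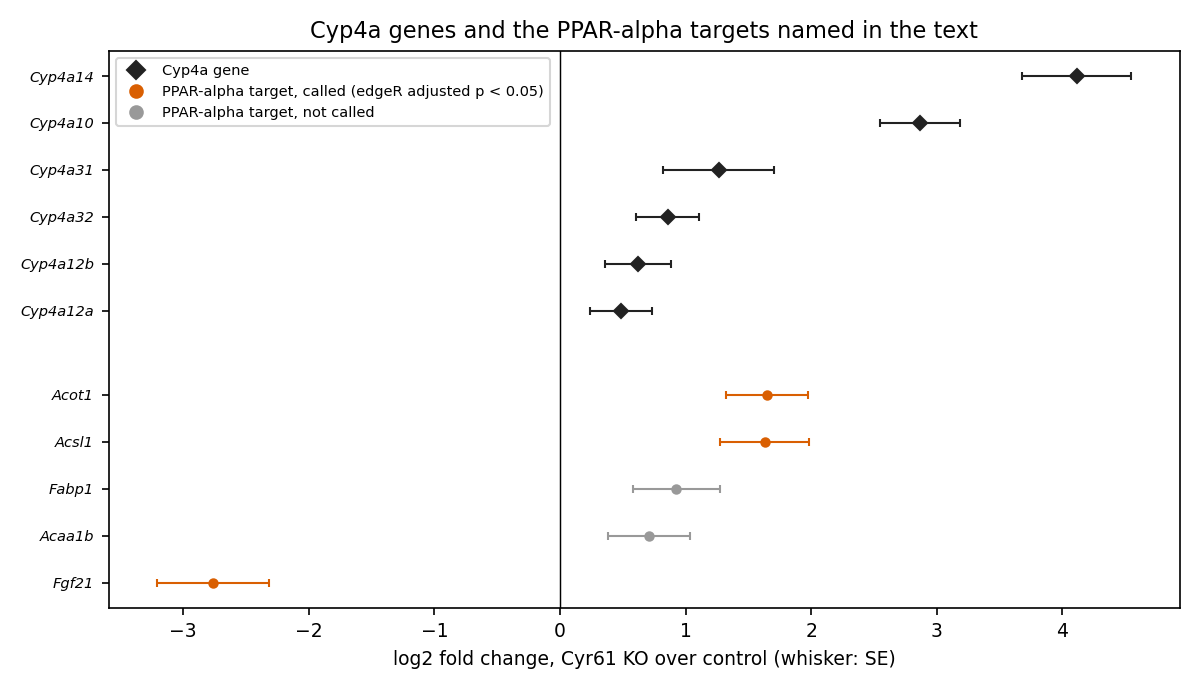
Log2 fold change of Cyr61 KO over Control (x axis) with its SE for the 6 Cyp4a genes (diamonds) and 5 PPAR-alpha targets named in the text (circles, orange where called by edgeR). Cyp4a14 (4.11) and Cyp4a10 (2.87) lie to the right of these targets, of which Acot1 is at 1.65 and Fgf21 at -2.76.

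Of 24 tested regulators of these genes, nuclear receptors with their cofactors and growth hormone signalling genes, 1 was called higher and none lower, where 1.07% and 2.37% of all tested genes were. Their median log2 fold change was 0.47, with 9 at an unadjusted p below 0.05 (27.4% of all tested genes). DESeq2 called 5 higher, where it called 886 of all 13563 tested genes higher. The called gene was Nr1i3, which encodes the xenobiotic receptor CAR, at 60.5, 51.5 and 38.1 CPM in the Cyr61 KO libraries against 15.7, 17.5 and 16.2 CPM in the Control libraries (log2 fold change 1.61 ± 0.22, edgeR adjusted p = 0.0176). Its call was lost without Cyr61 KO replicates 1 or 2 (edgeR adjusted p = 0.0615 and 0.0833) and with library totals (0.0663). Ppara itself was at 178, 287 and 239 CPM in the Cyr61 KO libraries, against 103, 54.0 and 114 CPM in the Control libraries. Its groups did not overlap, and its log2 fold change of 1.38 ± 0.34 did not pass (edgeR adjusted p = 0.0595). Ppara was chosen for its role after its values were seen. The abundant Hnf4a, Rxra and Ghr, which encode a hepatocyte factor, the partner of PPAR-alpha and the growth hormone receptor, had log2 fold changes of 0.83, 0.91 and 0.88 and did not pass (edgeR adjusted p = 0.228, 0.179 and 0.133). Igf1, a target of growth hormone, was at -0.06 (0.894).

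Because Cyp4a12a is male-biased, genes of sex-biased liver expression were set beside it. Of 15 male-biased genes, all tested, edgeR called 3 higher and none lower, where 1.07% and 2.37% of all tested genes were. Their median was 0.97, and 8 had an unadjusted p below 0.05 (27.4% of all tested genes). DESeq2 called 7 higher and 1 lower, where it called 886 of all 13563 tested genes higher and 1387 lower. Of the 3 with negative log2 fold changes, Selenbp2 was at -1.72 with overlapping groups (edgeR adjusted p = 0.130). Those called higher by edgeR were the organic anion transporter gene Slco1a1 at a log2 difference of 4.23 ± 0.47 (SE, edgeR adjusted p = 0.0107), the fatty acid elongase gene Elovl3 at 2.84 ± 0.42 (0.0195) and the steroid dehydrogenase gene Hsd3b5 at 5.28 ± 0.96 (0.0315). Elovl3 was at 525, 239.5 and 203 CPM in the Cyr61 KO libraries, against 58.7, 39.9 and 36.4 CPM in the Control libraries. Slco1a1 and Hsd3b5 were lowest in Cyr61 KO replicate 3, the library where all 6 Cyp4a genes were highest: Slco1a1 was at 318, 443 and 170.01 CPM and Hsd3b5 at 78.4, 106 and 6.81 CPM in the 3 knockouts, given by replicate number. In the Control libraries they were at 17.4, 9.36 and 22.7 CPM for Slco1a1 and 1.095, 0.826 and 2.97 CPM for Hsd3b5. Of the most abundant male-biased genes not called, Mup3, a major urinary protein gene, was at 2.01 on the log2 scale with every knockout above every control (edgeR adjusted p = 0.0682). Mup20, Gstp1 and Cyp2d9 had overlapping groups, at -0.06, -0.14 and 0.47. Of 12 tested female-biased genes none was called by edgeR, at a median of -0.01, with 2 at an unadjusted p below 0.05 (27.4% of all tested genes). By DESeq2 2 were called higher, beside 886 of all 13563 tested genes.

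All 3 male-biased calls were lost without Cyr61 KO replicate 1 (edgeR adjusted p = 0.0615 for Slco1a1, 0.0615 for Elovl3 and 0.0920 for Hsd3b5), and Elovl3 and Hsd3b5 also without replicate 2 (0.0588 and 0.105). Hsd3b5 was lost without Control replicates 1 or 2 as well (0.0618 and 0.0792), and with library totals (0.0644).

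In the rest of the Cyp4 family, 9 of 18 listed genes were tested, of which edgeR called 2 lower and none higher, where 2.37% and 1.07% of all tested genes were. The other 7 had positive log2 fold changes, beside 6561 of all 13563 tested genes, and the median of the 9 was 0.465. Among the 7, Cyp4f17 was at 1.07 with every knockout above every control (edgeR adjusted p = 0.0904). DESeq2 called 1 higher and 2 lower, where it called 886 of all 13563 tested genes higher and 1387 lower. Of the 9, 4 had an unadjusted p below 0.05 (27.4% of all tested genes). Cyp4f18 encodes a leukotriene B4 hydroxylase of mouse neutrophils. Its level was 1.28, 1.03 and 1.82 CPM in the Cyr61 KO libraries against 6.85, 14.3 and 5.17 CPM in the Control libraries (log2 fold change -2.66 ± 0.46, edgeR adjusted p = 0.0272). Cyp4f16 was at 4.07, 1.88 and 5.38 CPM in the Cyr61 KO libraries against 12.3, 14.1 and 16.2 CPM in the Control libraries (-1.91 ± 0.37, 0.0371). How far its reads can be told from those of other Cyp4f genes, such as Cyp4f37, was not tested. Cyp4f18 and Cyp4f16 both differed in the direction opposite to Cyp4a14 and Cyp4a10. Both calls were lost without Cyr61 KO replicate 1 (edgeR adjusted p = 0.0913 for Cyp4f18 and 0.0947 for Cyp4f16) or replicate 2 (0.120 and 0.109), and that of Cyp4f16 without Control replicates 1 or 2 (0.0609 and 0.0645). With library totals neither was called (0.0717 for Cyp4f18 and 0.0732 for Cyp4f16). The abundant Cyp4v3 and Cyp4f14 had log2 fold changes of 0.67 and 0.87 and did not pass (edgeR adjusted p = 0.249 and 0.277).

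Markers of liver cells were set beside these values. In bulk liver, fewer cells of a type and less RNA per cell cannot be told apart. The summed CPM of 12 hepatocyte markers was 140370 to 173070 in Cyr61 KO and 58296 to 148270 in Control libraries, lowest in Control replicate 2. None of the 12 was called by edgeR, where 1.07% of all tested genes were called higher and 2.37% lower. None had an unadjusted p below 0.05, beside 27.4% of all tested genes. By DESeq2 1 was called higher, beside 886 of all 13563 tested genes. The median log2 fold change of the 12 was 0.39, with 10 positive, so the lack of calls does not show unchanged levels. Alb alone averaged 82870 CPM in Cyr61 KO and 52218 CPM in Control libraries, of sums averaging 152980 and 112970 CPM. Scaling to the sum therefore leans largely on Alb. When each Cyp4a level was taken as a share of the hepatocyte marker sum, Cyp4a14 and Cyp4a10 had log2 ratios of 3.41 and 2.27. Cyp4a31 and Cyp4a32 had ratios of 0.67 and 0.21, and Cyp4a12a and Cyp4a12b changed sign, to -0.15 and -0.068. Without Control replicate 2 these last 2 were at 0.38 and 0.58, the 2 before them at 1.14 and 0.74, and Cyp4a14 and Cyp4a10 at 4.16 and 2.68. The 10 pericentral markers, which belong to hepatocytes around the central vein, summed to 5358 to 8868 CPM in Cyr61 KO and 1656 to 2289 CPM in Control libraries. Of that sum, Cyp2e1 averaged 4532 CPM in Cyr61 KO and 1274 CPM in Control libraries. EdgeR called 4 of the 10 higher and none lower, where 1.07% and 2.37% of all tested genes were. DESeq2 called 6 higher and 1 lower, where it called 886 of all 13563 tested genes higher and 1387 lower. Slc1a4 was the 1 member with a negative log2 fold change, at -1.05 (edgeR adjusted p = 0.0651), and every knockout was below every control. Those called by edgeR were the glutamine synthetase gene Glul at 2.44, the glutamate transporter gene Slc1a2 at 2.65, and the P450 genes Cyp2e1 at 1.83 and Cyp1a2 at 1.57 on the log2 scale (edgeR adjusted p = 0.0113, 0.0146, 0.0427 and 0.0272). None of these 4 was called without Cyr61 KO replicate 1 (edgeR adjusted p = 0.0615, 0.0615, 0.0920 and 0.0842), nor Glul, Cyp2e1 and Cyp1a2 without replicate 2 (0.0738, 0.201 and 0.134). Cyp2e1 and Cyp1a2 were also not called without Control replicate 1 (0.0951 and 0.0610), nor Cyp2e1 without Control replicate 3 (0.0594) or with a replicate block (0.0748). With library totals as the only scaling Slc1a2, Cyp2e1 and Cyp1a2 were not called (0.0511, 0.0568 and 0.0717). The 8 periportal markers summed to 3031 to 5637 CPM in Cyr61 KO and 1842 to 5061 CPM in Control libraries. None of the 8 was called by edgeR, where 1.07% of all tested genes were called higher and 2.37% lower. By DESeq2 1 was called lower, beside 1387 of all 13563 tested genes. At an unadjusted p below 0.05 were 2, Aldh1b1 and Ass1 (27.4% of all tested genes), both with negative log2 fold changes. Of the 8, 6 were negative and 2 positive. Cyp2f2 was at 1.03 with every knockout above every control (edgeR adjusted p = 0.188). The defining member of this list, Ass1, was at 0.551 CPM or less in every library, which is unusually low for a urea cycle gene of liver. The reason was not tested, so neither the value nor its place in these counts is read as its expression. The 10 leukocyte markers summed to 235 to 595 CPM in Cyr61 KO and 968 to 1965 CPM in Control libraries, where Lyz2 and Cd74 averaged 493 and 656 CPM. Of the 10, 9 had negative log2 fold changes, beside 7002 of all 13563 tested genes, the exception being Clec4f at 0.22. Clec4f and Adgre1, at -0.52, had overlapping groups (edgeR adjusted p = 0.666 and 0.451). EdgeR called 3 of 10 lower (Lyz2, Cd74 and S100a8), where 2.37% of all tested genes were. By DESeq2 6 were called lower, beside 1387 of all 13563 tested genes. None of the 3 was called by edgeR without Cyr61 KO replicate 1 (edgeR adjusted p = 0.118, 0.0920 and 0.0903) or replicate 2 (0.161, 0.152 and 0.105). Lyz2 and Cd74 were not called without Control replicate 1 either (0.0747 and 0.0560), nor Lyz2 without Control replicate 2 (0.0795). With library totals none of the 3 was called (0.0791, 0.0717 and 0.0677). The part of these markers in the Cyp4a values was not tested.

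Across the 6 libraries, the log2 levels of Cyp4a14 and Cyp4a10 varied most closely together of any 2 members (Pearson r = 0.986), and those of Cyp4a12a and Cyp4a12b least (r = 0.745). These coefficients are descriptions over 6 libraries that fall into 2 groups, so that any gene with a difference between groups scores high. Among 11850 genes outside the family with a mean of at least 1 CPM, the 5 most like Cyp4a14 were Igf2bp2, an RNA-binding protein gene (r = 0.9986), Clcn6 (r = 0.9978), Man2a2, a Golgi mannosidase gene (r = 0.9958), the thyroid hormone receptor gene Thra (r = 0.9945) and Agtpbp1 (r = 0.9943). Igf2bp2 was at 7.96, 9.29 and 12.2 CPM in the Cyr61 KO libraries, against 2.25, 2.72 and 2.04 CPM in the Control libraries. The 5 most like Cyp4a12a were Zfp174 (r = 0.9856), Adamts13 (r = 0.9801), Lmbr1 (r = 0.9799), Tnfrsf14 (r = 0.9775) and Ephb4 (r = 0.9765), and the 2 sets share no gene.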

How the data were processed

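RNA was measured in 3 Cyr61 KO and 3 Control liver libraries made with a directional kit. The authors deposited read counts per gene, 1 table per library, with unstranded counts and counts for either strand. Trimmomatic 0.38, STAR 2.6.1a and the builds hg38 and mm10 are listed in the submitters' processing notes, with annotation release and mapping settings not given in the sources used here. The strand of the directional kit was used, and the opposite strand held 0.937% to 1.36% of the stranded counts. Reads in no gene (4.27% to 25.7%), in several genes (0.655% to 1.04%) or at several positions (3.74% to 19.4%) stayed out of library sizes and tests. A table of the whole series was not used.

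edgeR 4.0.16 in R 4.3.3 was run on all 6 libraries with filterByExpr (minimum count 10, minimum total count 15), TMM factors and a group term, and tested two-sided with the quasi-likelihood F statistic. This left 13563 genes, and a Benjamini-Hochberg adjusted p below 0.05 was called. CPM was computed with edgeR's TMM factors. Each SE was obtained by dividing the size of the log2 fold change by the square root of its F statistic. An exact permutation test of 3 against 3 cannot give a p below 0.1 and was not used. The fit was tested on simulated data. Every pair of libraries differed beyond sampling noise (chi-square per degree of freedom at least 57.8). Groups and replicate numbers came from the labels.

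Gene positions, merged exon lengths and transcript sequences came from GENCODE M21 (GRCm38, which mm10 is built on). Coding sequences were aligned in pairs, and the 50-base stretches of each member's transcript were looked up in the transcripts of all other genes. The members and the gene lists were chosen with earlier results of these data known. The text names all members, up to 8 called genes of each list by lowest p, up to 4 others by highest mean CPM, and the 5 genes most correlated with Cyp4a14 and with Cyp4a12a on log2(CPM + 1). Certain genes taken by this rule are left unreported. Pseudogenes and unnamed gene models were left out of that ranking. Alternatives were DESeq2 1.42.0, its size factors in edgeR, library totals only, no low-count filter, unstranded counts, a replicate block, counts summed over close copies and leaving out each library. Scaling to the hepatocyte marker sum, with and without Control replicate 2, was added after the data were seen.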

Additional observations from a re-analysis of the deposited data

How the results depend on the processing

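The log2 fold changes of the 6 Cyp4a genes were positive in every setting except scaling to the hepatocyte marker sum, which gave -0.15 for Cyp4a12a and -0.068 for Cyp4a12b; that sum was lowest in Control replicate 2, and without that library the values were 0.38 and 0.58. Leaving out 1 library at a time gave 3.62 to 4.36 for Cyp4a14, 2.70 to 3.10 for Cyp4a10, 0.50 to 1.58 for Cyp4a31, 0.57 to 1.05 for Cyp4a32, 0.35 to 0.63 for Cyp4a12a and 0.37 to 0.79 for Cyp4a12b. Library totals gave 0.23 for Cyp4a12a.

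Counts of called genes moved more. Over all genes, DESeq2 called 886 higher and 1387 lower, library totals 27 and 23, and no low-count filter 278 and 666, and leaving out 1 library gave 4 to 169 higher and 3 to 720 lower. DESeq2 called 4 members higher and leaving out 1 library gave 1 to 2. Called higher by DESeq2 were 11 PPAR-alpha targets, 7 genes of the omega-oxidation route, 5 regulators, 1 other Cyp4 gene, 7 male-biased genes and 2 female-biased genes, and 1 male-biased gene was lower. With library totals 0 PPAR-alpha targets were higher and 0 lower, and 0 omega-oxidation genes and 0 regulators were higher and 0 other Cyp4 genes lower. Without a low-count filter 2 omega-oxidation genes, 2 regulators, 5 male-biased genes and 1 female-biased gene were higher. DESeq2's size factors in edgeR gave 2 omega-oxidation genes. Leaving out 1 library gave 0 to 2 PPAR-alpha targets higher and 0 to 2 lower, 0 to 2 omega-oxidation genes and 0 to 2 regulators higher, 0 to 2 other Cyp4 genes lower and 0 to 5 male-biased genes higher. The cause of these moves was not tested.

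Same-numbered libraries did not deviate together from their group means (r = -0.10, -0.23 and -0.44). Deviations around a mean of 3 libraries are tied to each other, so these coefficients cannot decide whether the numbers pair the samples. The labels state no pairing. With a replicate block 2 members were called, Cyp4a14 at 3.998 and Cyp4a10 at 2.86, with 162 genes higher and 471 lower in all. The replicate block left 1 PPAR-alpha target and 0 omega-oxidation genes higher and 1 male-biased gene lower.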
